A study of Mus musculus with 6 samples.

Results

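The POU class 3 genes, Pou3f1, Pou3f2, Pou3f3 and Pou3f4, were followed in RNA-seq counts of mouse palatal shelves. They were taken by their symbols in the deposited count files, and all 4 were found among the 23366 genes listed. The members were chosen by family name, and the family was selected on the measured difference of Pou3f2 between knockout and wild type, since Pou3f2 had the largest positive log2 fold change among the genes called higher in the knockout. Its difference between the groups, and that of the other members, is therefore given as a description and supports nothing.

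The palatal shelves are the paired outgrowths that form the secondary palate, and they were dissected at E14.25. The 3 wild type libraries (replicates 2, 3 and 4) are labelled WT, with no further allele given. The 3 knockout libraries (replicates 1, 2 and 3) are labelled Kmt2dfl/fl Wnt1-Cre, that is, homozygous for a floxed allele of Kmt2d, a histone H3 lysine methyltransferase, with Cre driven from Wnt1. Wnt1-Cre acts in the neural crest lineage and the dorsal neural tube. Most shelf mesenchyme is of that lineage, while epithelium, endothelium, muscle and blood cells in the shelf are not and should keep Kmt2d. The labels call the samples biological replicates without naming embryos or litters, so p-values measure the spread between these libraries only.

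POU class 3 proteins are transcription factors that bind DNA through a POU-specific domain and a linked homeodomain, often next to SOX proteins. Pou3f1 (Oct6) is known from Schwann cells and epidermis, Pou3f2 (Brn2) from neural progenitors and the hypothalamus, Pou3f3 (Brn1) from forebrain, kidney and the mesenchyme of the upper face, and Pou3f4 (Brn4) from the mesenchyme around the inner ear. Each gene has 1 transcript and 1 exon in GENCODE M21, so a spliced read cannot mark its mature RNA.

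The members are much alike where they encode the POU-specific domain, and the reads were 25 bases long, so the closest stretch is shown first. The 4 lines below are matched positions of the coding strand (5′ to 3′, GENCODE M21 transcripts, build GRCm38), with capitals for bases identical in all 4 genes.
Pou3f1: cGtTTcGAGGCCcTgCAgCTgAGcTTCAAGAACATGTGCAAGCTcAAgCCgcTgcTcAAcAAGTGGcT
Pou3f2: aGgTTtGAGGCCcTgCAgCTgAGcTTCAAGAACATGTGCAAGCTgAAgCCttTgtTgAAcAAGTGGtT
Pou3f3: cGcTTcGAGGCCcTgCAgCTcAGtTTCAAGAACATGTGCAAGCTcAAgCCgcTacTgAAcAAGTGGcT
Pou3f4: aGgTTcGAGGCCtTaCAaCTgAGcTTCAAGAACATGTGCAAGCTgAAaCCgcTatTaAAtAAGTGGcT
Of these 68 bases, 51 were identical in all 4 genes, and the longest run common to all was 20 bases. The longest coding run that Pou3f2 shared with another member was 38 bases with Pou3f1, followed by 29 bases with Pou3f4. With the most abundant member, Pou3f3, it shared at most 23 bases, which is under the read length. Of all 25-base windows of the transcript, 3.67% in Pou3f2, 2.42% in Pou3f3, 9.10% in Pou3f1 and 2.03% in Pou3f4 occurred also in a transcript of another gene. A read in such a window could not be placed uniquely by itself.

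The sequences upstream of the start sites are shown for the 2 members that passed the count filter. Both lines give the 250 bases before the RefSeq start (build GRCm38.p6, 5′ to 3′ on the strand of the gene), with CCAAT boxes in capitals. Pou3f2 is at chr4:22488367-22488616 on the minus strand and Pou3f3 at chr1:42695518-42695767 on the plus strand.
Pou3f2: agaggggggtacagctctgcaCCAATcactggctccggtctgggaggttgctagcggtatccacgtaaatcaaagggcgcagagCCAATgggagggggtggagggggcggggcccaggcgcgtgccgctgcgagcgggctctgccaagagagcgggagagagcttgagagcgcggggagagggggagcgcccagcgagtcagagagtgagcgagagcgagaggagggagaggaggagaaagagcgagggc
Pou3f3: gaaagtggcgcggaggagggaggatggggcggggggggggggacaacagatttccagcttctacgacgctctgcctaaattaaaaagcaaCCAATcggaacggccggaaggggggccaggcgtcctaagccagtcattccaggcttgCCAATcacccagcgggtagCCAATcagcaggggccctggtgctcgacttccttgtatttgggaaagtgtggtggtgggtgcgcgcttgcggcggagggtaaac
The window of Pou3f2 had 66.8% G and C, 18 CpG dinucleotides and 2 CCAAT boxes. The window of Pou3f3 had 60.8%, 15 and 3, respectively. The median over all promoters in the RefSeq table was 6 CpG. Of these promoters, 78.3% had fewer CpG than Pou3f2 and 72.7% fewer than Pou3f3. The octamer ATGCAAAT, the sequence after which POU proteins were first named octamer factors, was searched on both strands. It was in neither window, nor in that of Pou3f4, against 1.81% of the 27025 genes with an entry. Of the 12 genes that were both called higher in the knockout and present in the table, 0 held it. CCAAT, on either strand, was in 6 of these 12 and in 40.4% of the 10399 tested genes with an entry. These are matches of letters and not measured sites, and Pou3f1 has no entry.

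Depth and library quality bear on counts this low. Read pairs assigned to genes ranged from 12721979 (knockout replicate 2) to 24916079, and 1 count was worth 0.0356 to 0.0757 CPM (gene counts scaled to a common normalised library size). Pairs that fell outside annotated genes were 47.5% of the total in knockout replicate 2 and 12.3% to 18.1% of it elsewhere. Kmt2d, listed under its older symbol Mll2, had wild type counts of 5529, 4712 and 3963 and knockout counts of 4015, 7117 and 3502 (adjusted p = 0.368). A whole-gene count of a floxed gene in mixed tissue does not check the deletion. The 14 markers of palate mesenchyme all passed the count filter, with Osr2 at 46.2 CPM or more, Shox2 at 31.4 CPM or more and Prrx1 at 562 CPM or more in every library. Of this list, Col1a1, a chain of type I collagen, was called lower (2236 ± 614 against 709 ± 108 CPM, SD, n = 3 each, adjusted p = 0.0375), a call lost when any 1 of the 6 libraries was left out (adjusted p = 0.0795 to 0.189). It was the 1 call of the 14, against 0.436% lower and 0.0984% higher over the 14233 genes tested. Of the 14, 5 had an unadjusted p under 0.05, against 2021 of all genes tested. DESeq2 called 1 of the 14 higher and 1 lower, against 161 and 325 of all genes. Without knockout replicate 2, edgeR called 1 higher and 0 lower, against 80 and 227 of 14450.

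Pou3f2 was close to absent from the wild type shelf and low but present in every knockout library. Wild type replicates 2, 3 and 4 held 3, 1 and 2 raw counts of it, and knockout replicates 1, 2 and 3 held 12, 52 and 37. In CPM these were 0.107, 0.0448 and 0.0861, against 0.759, 3.94 and 2.04. All 3 knockout libraries lay above all 3 wild type libraries, as in 12.3% of the 14233 genes tested. The highest upper counting limit of the wild type was 0.312 CPM, and the lower limit of the lowest knockout library was 0.392 CPM. These are 95% exact Poisson intervals, which cover counting error only. The family was chosen by this contrast, so nothing is read from the separation.

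The mean of Pou3f2 was 0.0792 ± 0.0315 CPM in the wild type and 2.25 ± 1.60 CPM in the knockout (SD, n = 3 each). Summed counts were 6 and 101, a ratio of 26.3 once depth is allowed for (95% counting limits 11.7 and 73.4). In edgeR's quasi-likelihood fit its log2 fold change was 4.66 (standard error 0.77, adjusted p = 0.0471), the call by which the family was chosen. Of the 2 members tested, 1 was called higher, against 0.0984% of all genes tested, and 0 lower, against 0.436%. In either direction 0.534% of genes were called. Since the rule used this contrast, nothing is read from these shares. Within the knockout, the highest library was 5.18 times the lowest. Pou3f2 passed the count filter through the knockout group alone. The call was lost without any 1 wild type library (adjusted p = 0.22 to 0.295) or without knockout replicate 3 (adjusted p = 0.103), and omitting knockout replicate 2 left 4.04 on the log2 scale (adjusted p = 0.0165). With all 6 libraries it was also lost with median-of-ratios size factors (adjusted p = 0.0511), limma voom (adjusted p = 0.119) and edgeR's earlier quasi-likelihood method (adjusted p = 0.0641). In whole-tissue counts, more cells with the transcript and more transcript per cell cannot be told apart.

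**Figure D1:**
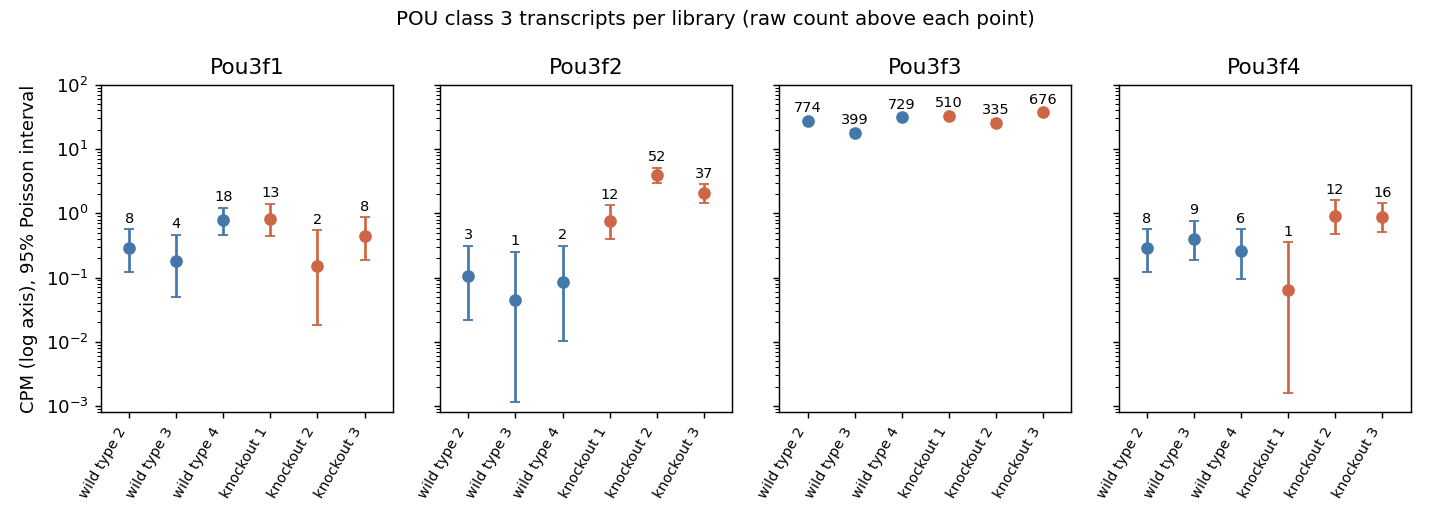
Level of each POU class 3 gene in each library, in CPM on a log axis, with 95% Poisson intervals as bars and the raw count above each point. Pou3f2 is the 1 member whose knockout libraries (12, 52 and 37 counts) all lie above the wild type libraries (3, 1 and 2 counts), and Pou3f3 is the most abundant member throughout.

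Pou3f3 was the most abundant POU class 3 gene in every library of both groups. Wild type replicates 2, 3 and 4 held 774, 399 and 729 counts of it, and knockout replicates 1, 2 and 3 held 510, 335 and 676. In CPM these were 27.5, 17.9 and 31.4, against 32.3, 25.4 and 37.3. The groups overlapped, since knockout replicate 2 lay below wild type replicates 2 and 4. The log2 fold change was 0.31 with a standard error of 0.23 (adjusted p = 0.547). The means were 25.6 ± 6.96 and 31.7 ± 6.02 CPM (SD, n = 3 each). Whether Pou3f2 and Pou3f3 differ in their response was not tested.

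Pou3f1 was at the level of a few counts. Wild type replicates 2, 3 and 4 held 8, 4 and 18 counts, and knockout replicates 1, 2 and 3 held 13, 2 and 8. The means were 0.413 ± 0.318 and 0.472 ± 0.337 CPM (SD, n = 3 each), and the groups overlapped. Summed and adjusted for depth, the counts had a ratio of 1.20 (95% counting limits 0.665 and 2.13). At this depth no difference was detectable.

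Pou3f4, on the X chromosome, was as low. Wild type replicates 2, 3 and 4 held 8, 9 and 6 counts, and knockout replicates 1, 2 and 3 held 1, 12 and 16. The means were 0.315 ± 0.0772 and 0.618 ± 0.481 CPM (SD, n = 3 each). Knockout replicate 1 was the lowest of all libraries and replicates 2 and 3 the highest, so the knockout libraries surrounded the wild type ones. Summed and adjusted for depth, the counts had a ratio of 1.97 (95% counting limits 1.10 and 3.57, which do not cover the 14.4-fold range within the knockout). Pou3f1 and Pou3f4 were the 2 members below the count filter and had no test.

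Levels between the genes can be compared per length of transcript (3.849 kb for Pou3f1, 5.587 kb for Pou3f2, 7.409 kb for Pou3f3 and 2.928 kb for Pou3f4 in GENCODE M21). In the wild type, Pou3f3 had a level of 3.46 ± 0.939 CPM per kb, Pou3f4 0.108 ± 0.0264, Pou3f1 0.107 ± 0.0826 and Pou3f2 0.0142 ± 0.00565 (SD, n = 3 each). Pou3f4 and Pou3f1 did not differ beyond their spread, and Pou3f2 was below both in every wild type library. In the knockout, Pou3f3 had 4.27 ± 0.812 CPM per kb, Pou3f2 0.402 ± 0.286, Pou3f4 0.211 ± 0.164 and Pou3f1 0.123 ± 0.0874 (SD, n = 3 each). There the ranges of Pou3f2, Pou3f4 and Pou3f1 all overlapped. In knockout replicate 1, Pou3f1 was above Pou3f2 (0.214 against 0.136 CPM per kb). Pou3f2 stood last in the wild type and second in the knockout by these means. Of the counts of the 4 genes together, Pou3f2 had 0.242% to 0.378% in the wild type libraries and 2.24%, 13.0% and 5.02% in knockout replicates 1, 2 and 3.

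Because the members have no introns, unspliced or genomic sequence would be counted for them like mature RNA, and other genes of that kind were measured in the same libraries. Olfr, Tas2r and Vmn1r genes encode odour, taste and pheromone receptors in a single coding exon and are silent in most tissues. Of 1363 such genes, 15 to 23 had a count in 5 libraries and 107 had one in knockout replicate 2. Together they had 479 to 899 counts in those 5 libraries and 3913 in knockout replicate 2, most of them on Vmn1r58, Olfr613 and Olfr856-ps1, named after their values were seen (419 to 861 and 3671 counts). Pairs outside genes were 18.1%, 47.5% and 14.20% in knockout replicates 1, 2 and 3, against 12.3% to 15.4% in the wild type. Pairs aligned to more than one place were 30.3%, 18.1% and 27.7%, against 18.4% to 20.99% in the wild type. Pou3f2 had 12, 52 and 37 counts in these knockout libraries. The part of such sequence in the Pou3f2 counts was not tested.

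Other intronless genes were measured in the same fit. Of 293 tested protein-coding genes with a single exon, 1 was called higher, against 0.0984% of all genes tested, and 1 lower, against 0.436%. The former was Pou3f2, by which the family was selected, and the latter Cd248, a glycoprotein of stromal cells, whose call was lost without any 1 wild type library (adjusted p = 0.0795 to 0.142) or knockout replicate 3 (adjusted p = 0.0641). Their median log2 fold change was -0.05, against 0.011 over all genes tested. Over all 14233 genes tested, 2021 had an unadjusted p under 0.05 and 51.5% had a positive log2 fold change. These shares stand for comparison with each list from here on. Of 33 intronless regulators of the SOX, forkhead, CEBP, JUN and related families, 24 passed the filter and 0 were called by edgeR. Of the 24, 4 had an unadjusted p under 0.05 and 4 had a positive log2 fold change. The median of the 24 was -0.26. The smallest p of these belonged to Jund, a subunit of AP-1, at 67.4 ± 5.26 CPM in the wild type and 39.0 ± 7.47 CPM in the knockout (SD, n = 3 each; adjusted p = 0.108). Jund was called lower by DESeq2 (adjusted p = 0.000565) and by edgeR without knockout replicate 2 (adjusted p = 0.00744), where it was the 1 such gene called. Over all genes tested, these fits called 325 of 14233 and 227 of 14450 lower.

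**Figure D2:**
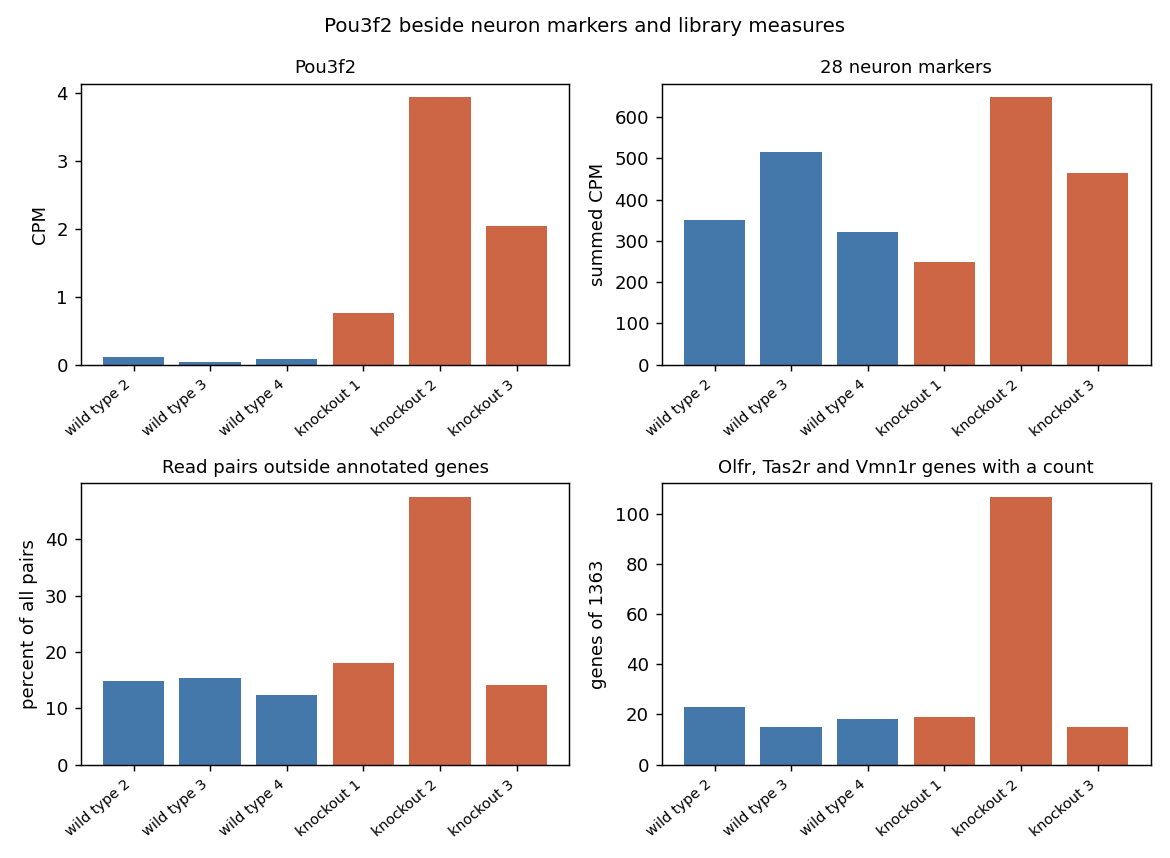
Pou3f2 (CPM), the summed level of 28 neuron markers (CPM), the percent of read pairs outside annotated genes, and the number of 1363 receptor genes with a count, 1 bar for each library. Knockout replicate 2 is highest in all 4 panels. Knockout replicate 3 has Pou3f2 at 2.04 CPM, 14.20% of pairs outside genes and 15 receptor genes detected. The part of these measures in the Pou3f2 counts was not tested.

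Neuron markers were measured beside Pou3f2. Of 28 neuron genes, all tested, 0 were called by edgeR (3 at an unadjusted p under 0.05). DESeq2 called Scg2 (adjusted p = 1.5e-06), 1 of the 161 genes it called higher among all 14233. Of the 28, 16 had a positive log2 fold change, with a list median of 0.071. Summed over the list, wild type replicates 2, 3 and 4 had 351, 515 and 322 CPM, and knockout replicates 1, 2 and 3 had 249.9, 648 and 464 CPM. Wild type replicate 3 lay above knockout replicates 1 and 3 in this sum. Within the knockout, both the list and Pou3f2 were lowest in replicate 1 and highest in replicate 2, and the part of neuron content in the Pou3f2 counts was not tested. Tubb3, the neuronal tubulin, was at 27.1, 51.3 and 31.9 CPM in the wild type and at 15.7, 43.0 and 46.7 CPM in the knockout.

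The neuron marker with the smallest p was Scg2, secretogranin II of dense-core vesicles. It was at 2.56, 4.53 and 3.19 CPM in the wild type and at 10.7, 42.2 and 17.95 CPM in knockout replicates 1, 2 and 3, so that its knockout libraries ran in the order of Pou3f2. The groups did not overlap, and the log2 fold change was 2.78 with a standard error of 0.51 (adjusted p = 0.0833, and 0.00807 without knockout replicate 2). In that fit without knockout replicate 2, 1 neuron gene was called higher, against 80 of all 14450 genes tested. The median of the neuron list was -0.23 there, a change of sign. This median was also negative with limma voom (-0.15) and without wild type replicate 2 (-0.056), wild type replicate 4 (-0.12) or knockout replicate 3 (-0.096). It was 0.36 without wild type replicate 3, 0.37 without knockout replicate 1 and positive in the remaining fits.

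Markers of neural progenitors, the cells for which Pou3f2 is best known, gave 0 calls by edgeR (1 at an unadjusted p under 0.05) or DESeq2. Of 18 genes, 10 passed the filter, 4 of them with a positive log2 fold change and a median of -0.088. Nes, the intermediate filament nestin, was at 101 ± 17.9 CPM in the wild type and 113 ± 64.5 CPM in the knockout (SD, n = 3 each; adjusted p = 0.85), with 188 CPM in knockout replicate 2 and 83.2 and 69.7 CPM in replicates 1 and 3. Sox21 had the smallest p (16.1 ± 1.33 CPM against 10.1 ± 2.77 CPM, SD, n = 3 each, adjusted p = 0.28). Neurog1 was at 0 in all 6 libraries. Neurog2, a proneural factor named after its values were seen, had wild type counts of 0, 0 and 1 and counts of 0, 8 and 17 in knockout replicates 1, 2 and 3, under the filter. Over the list, the summed level was 229.8 to 242 CPM in the wild type and 209.7, 299.8 and 203 CPM in the knockout.

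The SOX factors that bind beside POU proteins were abundant and gave 0 calls of 8 tested by edgeR or DESeq2 (1 at an unadjusted p under 0.05), with a median log2 fold change of -0.075. Sox2 was at 69.7 ± 5.09 CPM in the wild type and 62.9 ± 6.85 CPM in the knockout (adjusted p = 0.567), and Sox11 at 448 ± 13.4 and 493 ± 116 CPM (adjusted p = 0.72; SD, n = 3 each). Of 10 genes known as targets of POU class 3 factors, 8 were tested and 0 were called by edgeR or DESeq2 (1 at an unadjusted p under 0.05). Their median log2 fold change was 0.093. It was -0.27 without knockout replicate 2, -0.079 without wild type replicate 3, -0.040 with limma voom and positive in the remaining fits.

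Schwann cells and their precursors, a neural crest derivative in which Pou3f1 and Pou3f2 act, were examined by 14 markers. All 14 were tested, and 7 had an unadjusted p under 0.05, against 2021 of all 14233 genes tested. Of the 14, 5 had a positive log2 fold change, and 6 had all knockout libraries below all wild type ones, against 11.2% of all genes. In edgeR 1 was called lower, against 0.436% of all genes, and 0 were called higher. DESeq2 called 2 lower, against 325 of all genes. The 1 called by edgeR was Ngfr, the low-affinity neurotrophin receptor, which fell from 89.8 ± 2.75 to 38.9 ± 5.61 CPM (SD, n = 3 each; log2 fold change -1.21, adjusted p = 0.0194). The call of Ngfr was lost without any 1 wild type library (adjusted p = 0.114 to 0.1496) or without knockout replicate 3 (adjusted p = 0.0641). Sox10, the defining factor of the lineage, was at 9.25, 10.8 and 10.8 CPM in the wild type and at 20.1, 6.58 and 11.4 CPM in the knockout (adjusted p = 0.697). The median over the list was -0.26 on the log2 scale, and its summed level was 272 to 277 CPM in the wild type and 172 to 227 CPM in the knockout. Of 9 melanoblast genes, 4 were tested and 0 called by edgeR or DESeq2 (0 at an unadjusted p under 0.05 in edgeR), and Mitf was at 2.45 to 3.59 CPM in the wild type and 2.15 to 7.49 CPM in the knockout.

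**Figure D3:**
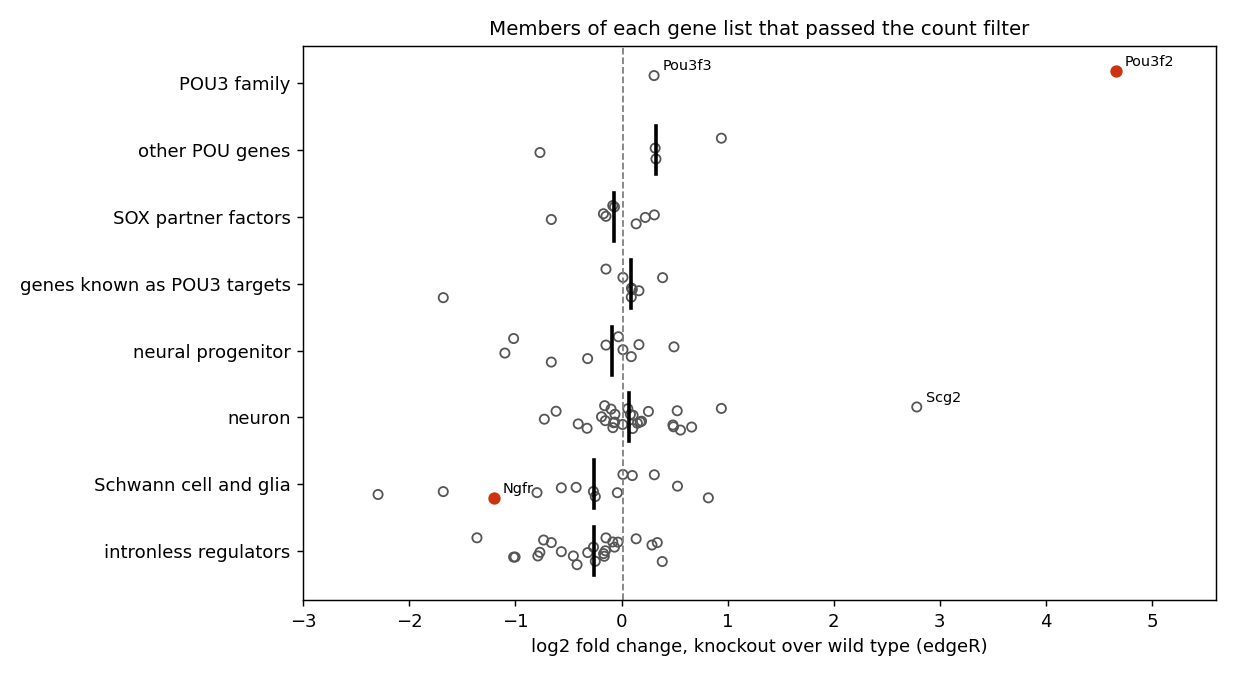
Log2 fold change of knockout over wild type (edgeR) for the members of each list that passed the count filter. Filled points passed an adjusted p of 0.05, black bars are list medians and the dashed line is the median of all 14233 genes tested. Pou3f2 lies at 4.66, while the lists of SOX, target, progenitor, neuron and glial genes have medians from -0.26 to 0.093.

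Other cells of the shelf were measured beside these genes. Of 16 tested epithelial genes, 0 were called by edgeR and 6 had an unadjusted p under 0.05, against 2021 of all 14233 genes tested. DESeq2 called 3 of the 16 lower, against 325 of all genes. Of the 16, 0 had a positive log2 fold change, against 51.5% of all genes. The epithelial sum was 841 to 1029 CPM in the wild type and 745, 423 and 771 CPM in knockout replicates 1, 2 and 3, and Epcam averaged 79.1 ± 8.54 CPM against 53.3 ± 15.1 CPM (SD, n = 3 each, adjusted p = 0.323). Without knockout replicate 2, edgeR called 3 epithelial genes lower, against 227 of all 14450 genes tested in that fit. Krt15, a basal keratin, had the smallest p (log2 fold change -1.46, adjusted p = 0.0771 by edgeR and 6.18e-06 by DESeq2). In edgeR's fit the lists of endothelium, skeletal muscle, leukocytes and blood gave 0 calls of 6, 6, 5 and 3 tested, with 4, 0, 2 and 0 at an unadjusted p under 0.05. Mrc1, the macrophage mannose receptor (adjusted p = 0.0528), was called lower by DESeq2 (adjusted p = 1.01e-05) and by edgeR without knockout replicate 2 (adjusted p = 0.011). Hba-a1 was at 0 in all libraries. The part of these shifts in the Pou3f2 counts was not tested.

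Of the 11 remaining POU genes, 4 passed the filter (Pou2f1, Pou2f2, Pou4f1 and Pou6f1) and 0 were called by edgeR or DESeq2 (2 at an unadjusted p under 0.05 in edgeR). Pou6f1 had the smallest p, at 25.0, 23.2 and 24.5 CPM in the wild type and 31.8, 30.0 and 28.6 CPM in the knockout (adjusted p = 0.287). Pou2f1, the ubiquitous Oct1, was at 65.4 to 68.3 CPM in the wild type and 71.4 to 96.7 CPM in the knockout (adjusted p = 0.33). Both had all knockout libraries above the wild type ones. Pou5f2, named after its values were seen, had wild type counts of 10, 4 and 2 and counts of 24, 63 and 2 in knockout replicates 1, 2 and 3, under the filter and with the groups overlapping.

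The genes next to the members showed no difference past the threshold. Fbxl4 and Mms22l, which flank Pou3f2 in GRCm38.p6, were at 9.30 ± 1.07 and 25.6 ± 1.72 CPM in the wild type and at 10.5 ± 2.83 and 27.6 ± 6.66 CPM in the knockout (SD, n = 3 each; adjusted p = 0.734 and 0.797). Pantr1, a long noncoding RNA gene beside Pou3f3 listed as 2610017I09Rik, was at 3.45, 2.55 and 3.62 CPM in the wild type and at 5.31, 2.57 and 4.64 CPM in the knockout (adjusted p = 0.572). Like Pou3f3, it was lowest in wild type replicate 3 and, within the knockout, in replicate 2. Of the other neighbours, Rragc and Utp11l beside Pou3f1, Mrps9 beside Pou3f3 and Sh3bgrl beside Pou3f4 were tested and not called, while Tmem182 and Cylc1 were below the filter.

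The genes whose levels ran most like those of Pou3f2 over the 6 libraries were Sorcs1, Pcdh17, Bcor, Vstm2a and Nars2, with Pearson correlations of log2 CPM of 0.998, 0.995, 0.995, 0.995 and 0.994. These are the 5 highest of 13437 genes, of which 114 exceeded 0.95, and 6 points that share the split into groups and their depth give little room to rank them. Vstm2a, an immunoglobulin domain protein, was at 6.83, 5.38 and 5.51 CPM in the wild type and 16.96, 34.7 and 27.5 CPM in knockout replicates 1, 2 and 3 (adjusted p = 0.0308). Its call was lost without any 1 wild type library (adjusted p = 0.156 to 0.1899) or without knockout replicate 3 (adjusted p = 0.0888). Sorcs1, a sorting receptor of neurons, was at 8.83, 8.51 and 9.04 CPM and at 14.05, 22.6 and 19.2 CPM (adjusted p = 0.0761). Pcdh17, a protocadherin, averaged 64.3 ± 4.43 CPM against 112 ± 21.2 CPM (SD, n = 3 each, adjusted p = 0.0931). Each was lowest in knockout replicate 1 and highest in replicate 2 among the knockout libraries, as Pou3f2 was. This order follows from their choice by correlation and is no separate result. Bcor, a transcriptional corepressor, and Nars2, a mitochondrial asparaginyl-tRNA synthetase, had smaller log2 fold changes of 0.35 and 0.42 (adjusted p = 0.216 and 0.292).

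Among the 5 genes most like Pou3f3 were Alg14, Gpr19 and Tk2, with correlations of 0.991, 0.971 and 0.969 over the 6 libraries. None of these 3 was called, with adjusted p from 0.594 to 0.864. All were low in wild type replicate 3, where Pou3f3 was at 17.9 CPM, which follows from their choice by correlation.

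**Figure D4:**
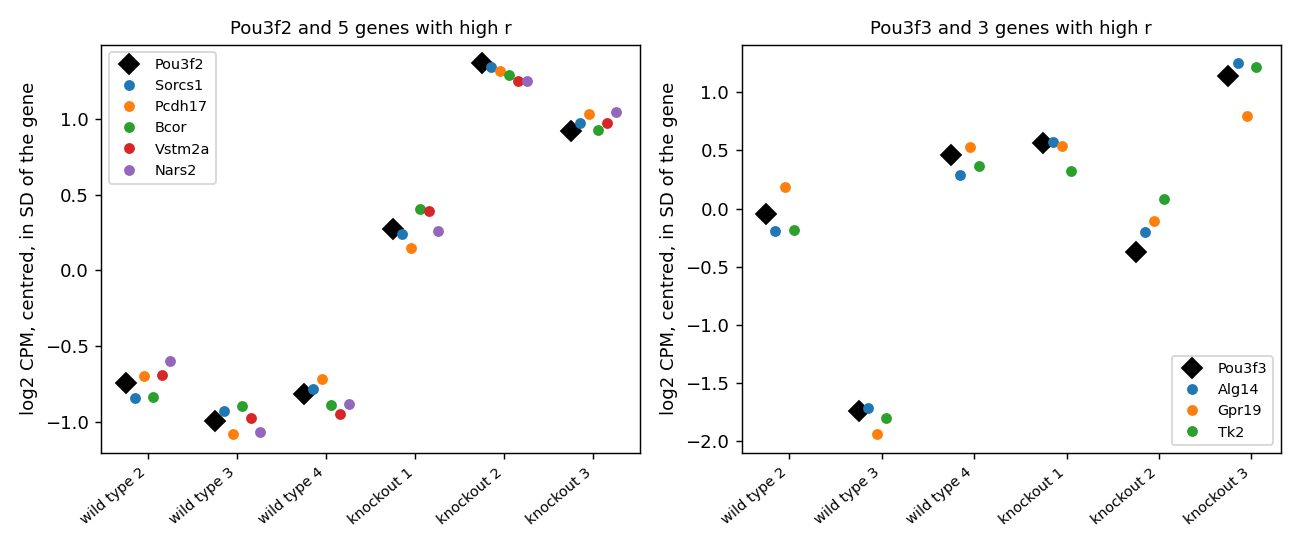
Log2 CPM of Pou3f2 (left) and Pou3f3 (right), as black diamonds, and of 5 and 3 genes among those with the highest Pearson correlation to each, as circles, centred and divided by the SD of each gene. The genes like Pou3f2 separate the groups with knockout replicate 1 nearest the wild type, while those like Pou3f3 are lowest in wild type replicate 3. Both patterns follow from choosing the genes by correlation.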

How the data were processed

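The authors deposited 1 file of raw, not normalised counts for each library, with 1 line per gene. The submitters' processing notes name TopHat2, SAMtools, HTSeq and mm9 and give no versions. The library kit was stranded, per the labels' protocols, but which annotation and strand setting served for counting is not given in the sources used here. Each file ends in 5 lines that name no gene, which were used in neither library sizes nor tests, and genes held 34.2% to 66.4% of all pairs. Libraries of 1 group differed beyond counting noise (chi-square per degree of freedom 11.5 to 163).

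Counts were filtered by filterByExpr, which left 14233 genes, scaled by trimmed mean of M-values and compared over all 6 libraries by the quasi-likelihood test of edgeR (version 4.0.16, R 4.3.3, robust), with Benjamini-Hochberg adjustment at 0.05. The fit was tested on simulated data. Correlations used log2 CPM with a prior count of 2. Genes named were the members, Kmt2d, set markers, list members past the threshold (at most 4) or else with the smallest p, neighbours, and the 5 most correlated genes with a mean of at least 1 CPM. Members and lists were chosen with earlier results of these data known. Gene structure came from GENCODE M21 and promoters and neighbours from RefSeq (GRCm38.p6). Alternatives used DESeq2 1.42.0, limma 3.58.1 voom, other size factors and filters, a replicate block, and leaving out each library or Rn45s and Lars2. Some results of these rules are not reported here.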

Additional observations from a re-analysis of the deposited data

Results flagged for a closer look

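In knockout replicates 1 and 2, 18.1% and 47.5% of pairs fell outside annotated genes, above the 12.3% to 15.4% of the wild type libraries. Pairs aligned to more than one place made up 30.3% and 27.7% in knockout replicates 1 and 3, above the 18.4% to 20.99% of the wild type. Both were noted because a signal outside the gene counts exceeded every control library. Knockout replicate 3, with 37 counts of Pou3f2, was within the wild type range for the first and above it for the second.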

How the results depend on the processing

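Pou3f2 kept a positive log2 fold change in every fit that gave a value, from 4.04 to 5.19. Its call was lost with median-of-ratios size factors (4.66, adjusted p = 0.0511), limma voom (4.23, adjusted p = 0.119) and the earlier edgeR quasi-likelihood method (4.68, adjusted p = 0.0641), and in fits of 5 libraries, which gave 4.04 to 5.07, when a wild type library (4.93, 4.41 and 4.70 for replicates 2, 3 and 4) or knockout replicate 3 (4.72) was the one left out. DESeq2 kept it at 4.79 (adjusted p = 3.16e-05). A filter of 1 CPM in 3 libraries removed Pou3f2, so that alternative gave no value. Pou3f3 ran from 0.10 to 0.48 and was never called. Without the filter, Pou3f1 and Pou3f4 had log2 fold changes of 0.21 and 0.93 (adjusted p = 0.905 and 0.604), and only that alternative and the omission of single libraries were run for them. With single libraries left out, the log2 ratio of Pou3f1 ran from -0.48 to 1.02, changing sign, and that of Pou3f4 from 0.59 to 1.51.

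The 76 genes called became 486 with DESeq2, 301 with the replicate block, and 0 to 307 with a library left out (0 without wild type replicate 2 or 3, where 1103 and 1117 genes had an unadjusted p below 0.05, 3 without wild type replicate 4, and 20, 307 and 11 without knockout replicates 1, 2 and 3). The groups share the numbers 2 and 3 only. Same-numbered libraries correlated in their deviations at 0.207 and -0.141, and libraries of unlike number at -0.398 to 0.309. With so few libraries, these values cannot tell whether the numbers pair them. With the block, in which only libraries numbered 2 and 3 have a partner, Pou3f2 had 5.19 and Pou3f3 0.47.

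The block called 4 epithelial genes, 3 Schwann cell and glial genes and 2 intronless regulators lower. It also called 1 gene each of the palate mesenchyme, leukocyte, blood and target lists lower. The neuron list had 1 gene called higher, Scg2 (adjusted p = 7.05e-07). Over all 14233 genes tested the block called 196 lower and 105 higher. Without the filter 1 epithelial and 1 leukocyte gene were called lower besides Ngfr and Col1a1, against 94 of all 19262 genes in that fit. Without Rn45s and Lars2, 1 leukocyte gene was called lower, against 70 of all 14236.

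Of 629 values for 42 other named genes, 563 kept direction and side of the threshold and 24 changed sign, none of them called. Over fits with a library left out, Fbxl4 ran from -0.061 to 0.34, Mms22l from -0.11 to 0.23, Mitf from -0.34 to 0.69, Nes from -0.42 to 0.42, Osr2 from -0.27 to 0.040, Sh3bgrl from -0.26 to 0.17, Shox2 from -0.40 to 0.22, Sox10 from -0.18 to 0.60, Sox11 from -0.052 to 0.28 and Tubb3 from -0.33 to 0.29. Without knockout replicate 2 the sign changes were Fbxl4 (-0.061), Mms22l (-0.11), Mitf (-0.34), Nes (-0.42) and Sh3bgrl (0.034). Without knockout replicate 1 they were Sh3bgrl (0.17), Shox2 (-0.40), Sox10 (-0.18) and Tubb3 (0.29), and without knockout replicate 3 Sox11 (-0.052). Without wild type replicate 2 they were Sh3bgrl (0.13) and Shox2 (-0.15), without replicate 3 Tubb3 (0.25) and without replicate 4 Osr2 (0.040). With the replicate block they were Sh3bgrl (0.12), Shox2 (-0.27), Sox10 (-0.20) and Tubb3 (0.27). Shox2, at 0.0028, was also negative with median-of-ratios (-0.0069) or upper quartile factors (-0.0086), DESeq2 (-0.0071), limma voom (-0.050), no filter (-0.023) and without Rn45s and Lars2 (-0.023). The depth limits what can be said of members with 1 to 18 counts, and the cause of the lost calls was not tested.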
